A study of Mus musculus with 23 samples.

Results

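The connexins Gja1, Gja3, Gja4, Gja5, Gjb2, Gjb5 and Gjc1 were followed through lungs with and without Rarres1. The members were the 7 rows with these symbols in the deposited tables of 24411 genes, and a few other connexin genes are given for comparison. RNA of whole mouse lung on the C57BL/6 background was sequenced in 23 libraries of 7 groups. Wild-type (WT) and Rarres1-KO lungs were taken at embryonic day 19.5 (E19.5), with no sex given, and from untreated males at 10 and 18 months. Each WT group had 3 libraries, as had the KO lungs at E19.5 and 10 months. At 18 months there were 5 KO non-tumour lungs, with the codes 1, 2, 3, 6 and 7, and 3 KO lung tumours with the codes 1, 3 and 6. No WT tumour was analysed here, so tumour tissue came from KO mice alone. How the deletion was made, whether it is constitutive, and the type or grade of the tumours are not given in the sources used here. Nor do the labels state that each library of a group is a different animal, and every p-value therefore reflects only library-to-library spread, part of which may be technical.

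Connexins are membrane proteins that assemble into rings, and the rings of neighbouring cells dock to form gap junctions, which let ions and small metabolites pass from cell to cell. The alpha (Gja), beta (Gjb) and gamma (Gjc) families differ in sequence and in the partners with which they can build channels. In lung, Gja1 (Cx43) is the widespread connexin of alveolar epithelium, endothelium, smooth muscle and fibroblasts. Gja4 (Cx37) and Gja5 (Cx40) couple arterial endothelial cells, and Gjc1 (Cx45) is found in vascular smooth muscle. Gjb2 (Cx26) and Gjb5 (Cx31.1) are epithelial, and Gja3 (Cx46) is best known from lens fibre cells.

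The members lie at 5 chromosomal places. Positions are those of RefSeq on build GRCm38.p6, the same assembly as the mm10 of the submitters' processing notes. Gja1 is on chromosome 10 (chr10:56377300-56390419, plus strand) and Gja5 on chromosome 3 (chr3:97032402-97053634, plus strand). Gjc1 is on chromosome 11 (chr11:102799477-102819686, minus strand). Gja4 (chr4:127311420-127314039) and Gjb5 (chr4:127354809-127358164) are neighbours on the minus strand of chromosome 4, 40.8 kb apart. Gja3 (chr14:57034460-57058030) and Gjb2 (chr14:57098602-57104702) are neighbours on the minus strand of chromosome 14, 40.6 kb apart, and Gjb6 follows 18.6 kb beyond Gjb2. In the GENCODE annotation of GRCm38 Gja5 overlapped 4 other genes, and none overlapped the remaining members. Whether counting used strand is not given in the sources used here, so reads of Gja5 and of antisense genes there cannot be told apart.

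RefSeq promoter entries were found for 6 of the 7 members. Shown are the 250 bases directly upstream of the annotated start, read 5′ to 3′ on the gene's own strand, for Gja1, Gja3 and Gjb2, the members that rose in tumours, and for the arterial pair Gja4 and Gja5, which were not called there. Capitals mark motif letters, searched on both strands. The AP-1 motif was spelled TGANTCA. The letters of the GC box were GGGCGG. For the TATA box they were TATAAA, and the T-box core was AGGTGT.
Gja1: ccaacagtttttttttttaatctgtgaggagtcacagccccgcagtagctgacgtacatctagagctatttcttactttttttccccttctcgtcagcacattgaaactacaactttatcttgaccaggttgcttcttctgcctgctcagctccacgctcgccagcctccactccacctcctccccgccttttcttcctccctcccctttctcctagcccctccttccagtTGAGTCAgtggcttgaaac
Gja3: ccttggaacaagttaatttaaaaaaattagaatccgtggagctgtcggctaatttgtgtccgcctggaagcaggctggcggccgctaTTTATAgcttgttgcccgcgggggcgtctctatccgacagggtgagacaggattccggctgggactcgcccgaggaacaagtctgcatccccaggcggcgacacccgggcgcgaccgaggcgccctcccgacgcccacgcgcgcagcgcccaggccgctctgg
Gjb2: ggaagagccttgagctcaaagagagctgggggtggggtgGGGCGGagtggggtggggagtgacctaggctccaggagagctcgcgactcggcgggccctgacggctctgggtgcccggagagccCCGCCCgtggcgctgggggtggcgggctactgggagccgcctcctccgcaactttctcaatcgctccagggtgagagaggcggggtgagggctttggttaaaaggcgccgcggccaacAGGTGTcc
Gja4: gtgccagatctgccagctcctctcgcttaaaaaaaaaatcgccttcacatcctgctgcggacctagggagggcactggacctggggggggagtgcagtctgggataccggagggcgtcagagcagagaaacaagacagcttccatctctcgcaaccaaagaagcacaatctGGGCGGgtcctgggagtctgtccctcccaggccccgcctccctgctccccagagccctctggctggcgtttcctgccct
Gja5: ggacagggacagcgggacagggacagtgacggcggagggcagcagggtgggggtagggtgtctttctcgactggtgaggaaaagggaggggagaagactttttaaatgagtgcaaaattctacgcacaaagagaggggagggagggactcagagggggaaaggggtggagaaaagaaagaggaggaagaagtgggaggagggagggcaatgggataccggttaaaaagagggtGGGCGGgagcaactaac

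The windows are chr10:56377050-56377299 for Gja1, chr14:57058031-57058280 for Gja3, chr14:57104703-57104952 for Gjb2, chr4:127314040-127314289 for Gja4 and chr3:97032152-97032401 for Gja5. Gja1 held the only AP-1 match among the member windows, 19 bases before its start, and 6.75% of 32851 RefSeq windows of this length held one. GC boxes stood in Gjb2 (at 2 positions), Gja4 and Gja5, against 32.7% of all windows. The T-box core of Gjb2 lay 8 bases before the start, with a match in 11.8% of all windows, and the TATA letters of Gja3, on the other strand, lay 163 bases before the start, with a match in 12.4% of all windows. Letters of an NKX core (TNAAGTG) were in 10.1% of all windows and in none shown. Those of a forkhead core (TGTTTAC) were in 3.17% of all windows and in none shown. A second Gja3 entry, not shown, held the T-box core on the other strand, 217 bases before its start. The windows shown for the 3 members that rose in tumours shared none of these motifs, and their G and C content was 50.0% in Gja1, 62.8% in Gja3 and 69.2% in Gjb2, with a median of 52.4% over all windows. These matches are descriptions of letters, and no binding was measured.

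Libraries held 23.7 to 46.6 M (mega) counts. Rarres1 had 24 to 64 reads in each of the WT libraries and 0 or 1 in each of the KO libraries and tumours. All 7 members passed the low-count filter in every comparison, except Gja3 in 3: KO non-tumour against WT lung at 18 months, and 18 against 10 months in each genotype. The marker levels used below are the mean log2(CPM + 1) over a list of genes, where CPM is the count per M counts, scaled by TMM over all 23 libraries. Levels between libraries are given in CPM and levels between genes in the deposited FPKM, which is per length. In whole lung, fewer cells of a type and less RNA per cell cannot be told apart.

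The 4 members Gja1, Gja4, Gja5 and Gjc1 made up nearly all of the members' RNA outside tumours. Per length, Gja1, Gja4, Gja5 and Gjc1 together held 98.7% ± 0.200 (SD, n = 3) of the FPKM summed over the 7 members in WT E19.5 lung, 97.3% ± 0.398 (n = 3) in WT 10-month lung and 97.3% ± 0.258 (n = 3) in WT 18-month lung. In KO non-tumour lung at 18 months they held 97.7% ± 0.330 (n = 5). Gja1 led in the embryo with 80.5 ± 6.19 FPKM in WT, ahead of Gja4 with 40.6 ± 5.65, Gja5 with 36.1 ± 3.13 and Gjc1 with 30.5 ± 2.49 FPKM. In adult WT lung the order changed: at 10 months Gja4 stood at 44.3 ± 5.56 FPKM, Gja1 at 25.8 ± 1.34, Gja5 at 23.7 ± 2.21 and Gjc1 at 12.1 ± 1.79 FPKM. The ranges of Gja1 and Gja5 overlapped at that age, and those of the other neighbours in this order did not. Gjb2 reached 2.27 ± 0.163 FPKM at 10 months, and Gjb5 (0.503 ± 0.423) and Gja3 (0.147 ± 0.150) were below 1 FPKM in each of these WT libraries. The summed FPKM of the members was 190.1 ± 12.3 in WT E19.5 lung and 109 ± 2.83 at 10 months.

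**Figure D1:**
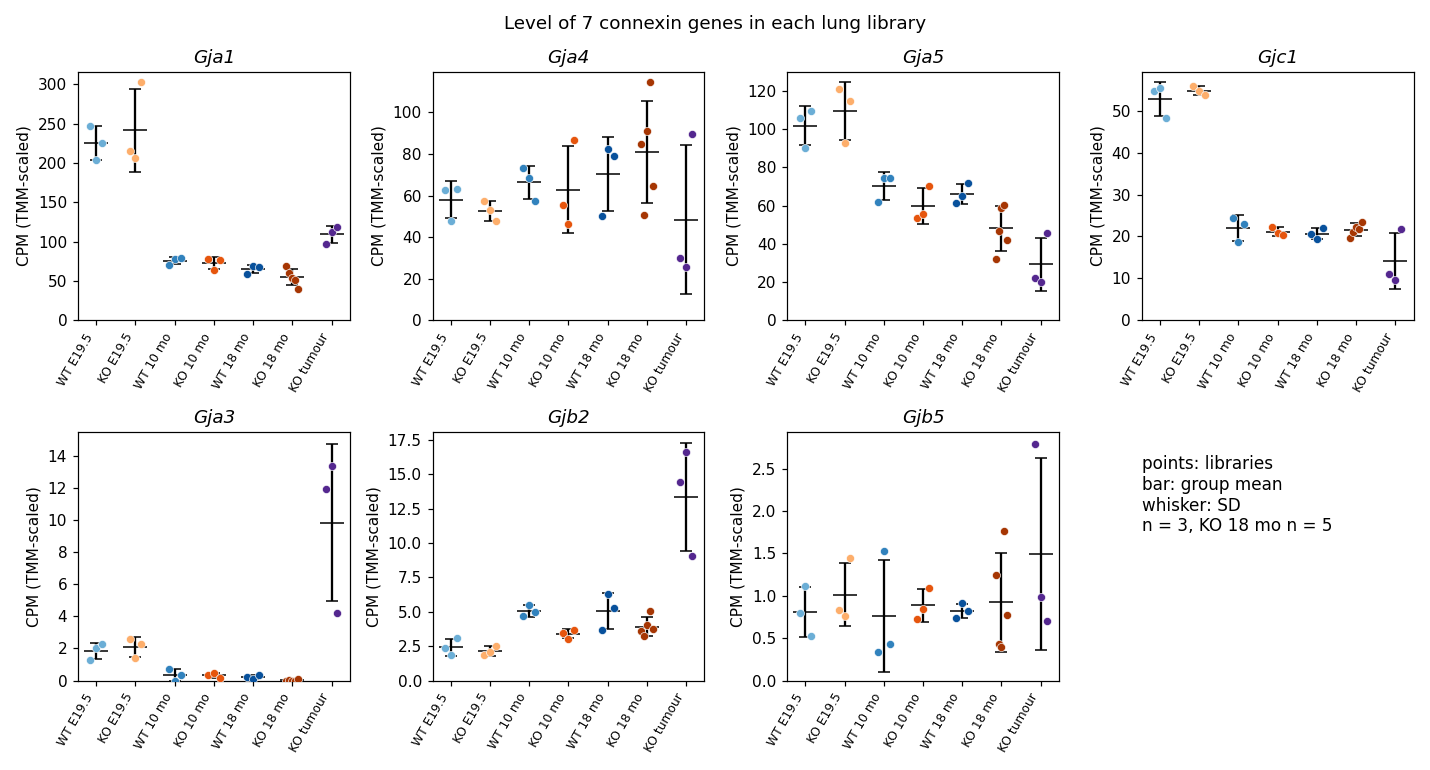
Level of each member (CPM, y axis) in the 23 libraries by group (x axis); points are libraries, bars are group means and whiskers are SD (n = 3, and n = 5 for KO non-tumour lung at 18 months). Gja1, Gja5 and Gjc1 are highest in the embryo, Gja3 and Gjb2 are highest in the tumours, and tumour 6 sits with the non-tumour lungs for Gja4 and Gjc1.

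Between E19.5 and 10 months 4 members fell and 1 rose, in both genotypes. In WT lung 5 of the 7 members passed the test, and 62.8% of all 15619 genes tested were called in this comparison, so the members' share was close to the background. In KO lung it was again 5 of 7, with 60.5% of 15626 genes called. The adult libraries were all male and the embryos have no stated sex, which cannot be told apart from age here.

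Gja1 stood at 247, 203 and 225 CPM in the WT embryos and at 70.2, 77.9 and 78.6 CPM in the WT lungs of 10 months. The ages did not overlap, with a 3.00-fold lower adult level (log2 fold change -1.59 ± 0.09 SE, adjusted p = 5.58e-07). In KO lung the libraries fell from 215, 207 and 303 CPM to 78.0, 63.8 and 76.6 CPM, with a log2 fold change of -1.73 ± 0.16 (adjusted p = 6.87e-05).

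Gjc1 fell 2.42-fold in WT lung. Its WT embryos stood at 54.7, 55.5 and 48.2 CPM and its WT adults at 24.3, 18.6 and 23.05 CPM, without overlap (log2 fold change -1.27 ± 0.11, adjusted p = 7.77e-06). In KO lung the change was -1.38 ± 0.07 (adjusted p = 1.93e-06), from 53.7 to 55.9 CPM down to 20.3 to 22.3 CPM. Gja5 fell as well, from 106, 90.2 and 110 CPM to 61.7, 74.2 and 74.3 CPM in WT lung (-0.55 ± 0.10, adjusted p = 0.000923), and from 121, 92.5 and 115 CPM to 53.4, 55.6 and 70.3 CPM in KO lung (-0.88 ± 0.13, adjusted p = 0.000713). With 1 fit over all 7 groups the WT change of Gja5 was no longer called (adjusted p = 0.0637). Gja4 did not pass: WT embryos stood at 62.7, 47.7 and 63.4 CPM and WT adults at 73.2, 68.3 and 57.4 CPM, which overlap (0.18 ± 0.13, adjusted p = 0.249).

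Endothelial marker genes were higher in the adult, where Gja5 and Gjc1 were lower. The list of 10 endothelial genes was at 7.93 to 8.13 in WT embryos and at 8.57 to 8.60 in WT adults, and 8 of its genes rose and 1 fell. Of 7 arterial endothelial genes 6 rose and 1, Sox17, a regulator of arterial identity, fell by 1.29 on the log2 scale. Of 8 smooth muscle and pericyte genes 3 fell and 5 did not pass in WT lung. Fibroblast and proliferation genes were lower in the adult, as were Gja1, Gja5 and Gjc1. The list of 7 fibroblast genes was at 8.38 to 9.02 in WT embryos and at 7.25 to 7.39 in WT adults, where 5 genes fell and 2 rose. The list of 5 proliferation genes was at 4.81 to 5.36 and at 2.42 to 2.75, and all 5 fell. Outside the members the connexin Gjc3, known from myelinating cells, fell in both genotypes, from 26 to 43 reads in each of the 6 embryo libraries to 1 or 2 in each adult library. Heart muscle genes, whose cells also use Gja1, Gja5 and Gjc1, ranged from 5.18 to 6.33 in WT embryos and from 2.64 to 6.62 in WT adults. The WT adult libraries 1, 3 and 2 had heart muscle levels of 6.62, 5.24 and 2.64. In that order Gja5 stood at 61.7, 74.3 and 74.2 CPM, Gjc1 at 24.3, 23.05 and 18.6 CPM, Gja3 at 0.745, 0.3601 and 0 CPM and Gja1 at 70.2, 78.6 and 77.9 CPM. In these 3 libraries alone Gjc1 and Gja3 had the order of heart muscle RNA, and Gja1 and Gja5 did not. In KO lung of 10 months heart muscle levels ran from 2.82 to 6.05, Gjc1 from 20.3 to 22.3 CPM and Gja3 from 0.177 to 0.496 CPM. At 18 months heart muscle levels were 4.58 to 4.77 in WT and 2.07 to 3.89 in KO non-tumour lung. Gjc1 was then at 19.4 to 22.0 CPM in WT and at 19.6 to 23.5 CPM in KO non-tumour lung. The part of heart tissue, fibroblasts and dividing cells in the members' levels was not tested.

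Gja3 was low at both ages. It stood at 1.28, 2.00 and 2.26 CPM in WT embryos, 147 reads in all, and at 0.745, 0 and 0.3601 CPM in WT adults, 32 reads in all. The fall was called in WT lung (-2.32 ± 0.81, adjusted p = 0.0417) and in KO lung (-2.68 ± 0.40, adjusted p = 0.000544), with no overlap between the ages in either. The WT call was lost without the low-count filter (adjusted p = 0.0687), and without any of the 3 WT embryos or WT 10-month library 3 (0.0683 to 0.124), and it rests on the reads given above.

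The epithelial member Gjb2 went the other way. WT embryos stood at 2.36, 1.85 and 3.07 CPM and WT adults at 4.67, 5.52 and 4.97 CPM, a 2.07-fold rise (1.05 ± 0.21, adjusted p = 0.00193). In KO lung the libraries stood at 1.84, 2.09 and 2.52 CPM and then at 3.43, 3.05 and 3.71 CPM (0.66 ± 0.20, adjusted p = 0.0213). The KO call was lost without KO embryo 1 or 2, or without KO 10-month library 1 or 3 (adjusted p 0.0573 to 0.0737). WT embryo 3, with the highest Gjb2 of its group, stood apart in 8 basal and squamous genes (5.43, against 0.48 to 0.72 in the other 5 embryos), and without it Gjb2 in WT lung still rose. Gjb5 stood between 0.339 and 1.52 CPM in the 12 libraries of both ages and both genotypes, with overlapping groups.

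No member was called between KO and WT lung at any age. At E19.5 0 of 7 members were called, and 0% of 15307 genes (0 genes by the edgeR test, 144 at an unadjusted p under 0.05, 2 by DESeq2, and 1 and 0 by limma at pseudocounts of 0.1 and 1 FPKM). Rarres1 itself, with 105 reads in the WT group against 2 in the KO group, had an adjusted p of 0.122 at E19.5, so a missing call at this age does not show that a level was equal. The KO embryos overlapped the WT embryos for every member, for example Gja1 at 207 to 303 CPM against 203 to 247 CPM, and Gjc1 at 53.7 to 55.9 against 48.2 to 55.5 CPM.

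At 10 months 1.52% of 15324 genes were called and again 0 of 7 members. The share of all genes without overlap between the genotypes is not given here, so a lack of overlap is a description only. Gjb2 stood at 4.67, 5.52 and 4.97 CPM in WT lungs and at 3.43, 3.05 and 3.71 CPM in KO lungs, without overlap. Its level was 1.49-fold lower in KO lung, which did not pass over all genes (log2 fold change -0.58 ± 0.14, adjusted p = 0.0886, and 0.0825 to 0.624 over the alternatives tried). Its neighbour Gjb6, a related epithelial connexin that is no member, was called. Gjb6 stood at 11.4, 15.01 and 12.7 CPM in WT and at 8.37, 8.09 and 8.37 CPM in KO lung (-0.67 ± 0.11, adjusted p = 0.0245), and the call was lost in 7 of 13 alternatives, among them the fits without any of the 3 KO libraries, or without WT library 2 or 3. Gja1, Gja3, Gja4, Gja5, Gjb5 and Gjc1 overlapped between the genotypes. Gja5 differed by -0.24 ± 0.12 (adjusted p = 0.344).

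At 18 months 0.0776% of 15463 genes were called in KO non-tumour against WT lung, and 0 of the 6 members tested. Gja5 stood at 61.1, 65.2 and 71.6 CPM in WT lung and at 32.3, 46.6, 59.0, 60.4 and 42.1 CPM in KO lung. All 5 KO lungs lay below the 3 WT lungs, the highest of them by under 1 CPM, and the difference did not pass (-0.46 ± 0.18, adjusted p = 0.550). The arterial list was at 6.11 to 6.25 in the WT lungs, at 6.03 in KO lung 1, which had the lowest Gja5, and at 6.32 to 6.52 in the other 4 KO lungs, above every WT lung. The endothelial list was at 8.44 to 8.65 in the WT lungs and at 8.27 to 8.68 in the KO lungs. Heart muscle genes stood at 4.58 to 4.77 in the WT lungs and at 2.07 to 3.89 in the KO lungs, and their part in the Gja5 values was not tested. Gjb2 was at 3.67, 6.27 and 5.24 CPM in WT and at 3.24 to 5.04 CPM in KO lung (-0.37 ± 0.21, adjusted p = 0.705). Gjb6 was lower in all 5 KO lungs, 6.78 to 9.90 CPM against 11.4 to 13.8 CPM, also without passing (-0.62 ± 0.14, adjusted p = 0.207). Gja1 was at 58.6 to 68.5 CPM in WT and at 40.1 to 68.5 CPM in KO lung (-0.26 ± 0.14, adjusted p = 0.702). Gja4, Gjb5 and Gjc1 overlapped between the genotypes, for example Gja4 with 50.1 to 82.5 CPM in WT and 50.6 to 114 CPM in KO lung.

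Gja3 was too low at 18 months to enter the test of non-tumour lung. The 3 WT libraries together held 18 reads in 85.1 M counts and the 5 KO libraries 3 reads in 148 M counts. The pooled level was 10.5-fold higher in WT lung, with an exact 95% interval of 3.06 to 55.5 that covers counting error only.

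Ageing from 10 to 18 months gave no call. In WT lung 0 of 6 members tested and 0% of 15321 genes were called (0 genes by the edgeR test, 833 at an unadjusted p under 0.05, 21 by DESeq2, 0 by limma). In KO non-tumour lung it was 0 of 6 and 0% of 15455 genes (0 by edgeR, 782 at an unadjusted p under 0.05, 11 by DESeq2, 0 by limma). Gja1 stood lower at 18 months in both: 58.6 to 68.5 CPM against 70.2 to 78.6 CPM in WT, without overlap (-0.21 ± 0.08, adjusted p = 0.891), and 40.1 to 68.5 CPM against 63.8 to 78.0 CPM in KO (-0.41 ± 0.15, adjusted p = 0.893). Gja4 was at 50.6 to 114 CPM in the KO lungs of 18 months and at 46.5 to 86.5 CPM at 10 months. Pooled Gja3 reads in KO lung were 28 in 87.3 M counts at 10 months and 3 in 148 M counts at 18 months, a 15.9-fold higher level at 10 months (95% interval 4.91 to 81.6, counting error only).

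No difference between ages in the effect of genotype was called for a member. For 18 against 10 months 0 of 7 members and 0% of 15653 genes were called by the edgeR interaction test (0 genes, 453 at an unadjusted p under 0.05, 1 by DESeq2, 0 by limma). For 10 months against E19.5 it was 0 of 7 members and 0.156% of 15994 genes. The estimates for the latter were -0.33 ± 0.18 for Gja5 (adjusted p = 0.727) and -0.39 ± 0.29 for Gjb2 (adjusted p = 0.814). These fits share the 10-month libraries, so their values are not independent of each other.

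Tumours of KO mice carried more Gja1, Gja3 and Gjb2 than KO non-tumour lung. In this comparison 3 of the 7 members were called, all 3 higher in tumour, and 13.8% of 15459 genes tested were called in either direction. The median log2 fold change was 0.70 over the 7 members and -0.01 over all genes. The members were chosen with earlier results of these data known, so their share and median are descriptions only. Both tissues are present for the codes 1, 3 and 6, which are read here as animals. The labels do not state this, and the title of the non-tumour lung with code 6 numbers it 4. With the animal as a block, which leaves 3 pairs, Gja3 was still called and Gja1 and Gjb2 were not.

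Gja3 showed the widest gap. Tumours 1, 3 and 6 stood at 11.9, 13.4 and 4.24 CPM, while the 5 non-tumour lungs stood at 0, 0.0390, 0, 0 and 0.0774 CPM. The tumours held 797 reads in 84.8 M counts and the non-tumour lungs 3 reads in 148 M counts, a 465-fold higher pooled level (95% interval 159 to 2261, counting error only). The edgeR test gave an adjusted p of 0.000672 (its fold change depends on the prior count, since 3 of the non-tumour lungs had no read), and 0.0486 with the animal as a block. Lens genes were not higher with it: the list of 7 lens genes was at 0.43 to 0.52 in the tumours and at 0.56 to 0.69 in the non-tumour lungs, without overlap, and of the 3 tested 1 fell and 2 did not pass. In FPKM the tumours reached 4.42, 5.02 and 1.74, so Gja3 was still below Gja1 in each tumour (30.4, 35.7 and 41.2 FPKM).

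Gjb2 stood at 14.5, 16.6 and 9.03 CPM in tumours and at 3.58, 3.24, 4.03, 5.04 and 3.72 CPM in non-tumour lung. The groups did not overlap, with a 3.40-fold higher level in tumours (1.77 ± 0.23, adjusted p = 0.00261). Within animals the tumour level was 4.05, 4.13 and 1.79 times that of the non-tumour lung for animals 1, 3 and 6, and with the animal as a block the log2 fold change was 1.64 (adjusted p = 0.0713). Gja1 stood at 96.8, 112 and 119 CPM in tumours and at 68.5, 59.6, 54.1, 51.7 and 40.1 CPM in non-tumour lung, again without overlap (0.99 ± 0.16, adjusted p = 0.00565). It was 1.41, 2.06 and 2.29 times higher within animals 1, 3 and 6 (0.91 with the animal as a block, adjusted p = 0.0768). Tumour 6, with the highest Gja1, had the lowest Gja3 and Gjb2 of the tumours.

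**Figure D2:**
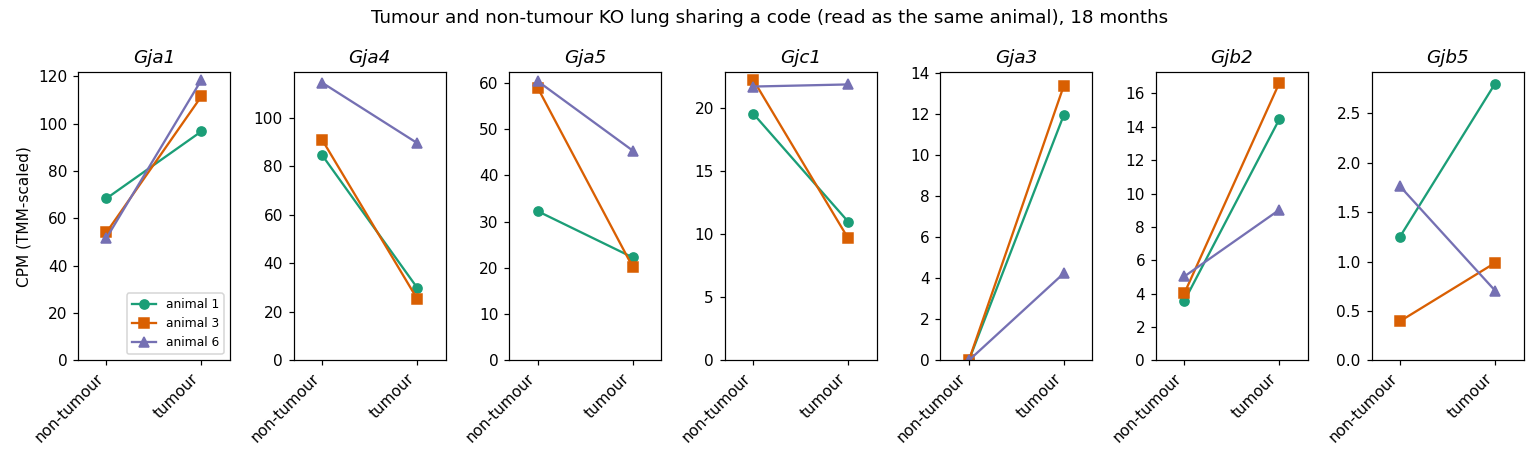
Level of each member (CPM, y axis from 0) in non-tumour lung and tumour (x axis) of animals 1, 3 and 6 at 18 months, as read from the codes, 1 line per animal. Gja1, Gja3 and Gjb2 are higher in the tumour of all 3 animals and Gja4 and Gja5 lower; Gjc1 is lower in animals 1 and 3 and level in animal 6, and Gjb5 goes up in 2 animals and down in animal 6.

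The vascular members Gja4, Gja5 and Gjc1 did not pass in tumours, and the tumours differed among themselves. Gja4 stood at 30.0, 25.4 and 89.6 CPM in tumours 1, 3 and 6 and at 50.6 to 114 CPM in non-tumour lung (-0.75 ± 0.42, adjusted p = 0.279). Gja5 stood at 22.3, 20.2 and 45.4 CPM against 32.3 to 60.4 CPM (-0.72 ± 0.30, adjusted p = 0.145). Gjc1 stood at 10.99, 9.66 and 21.9 CPM against 19.6 to 23.5 CPM (-0.62 ± 0.25, adjusted p = 0.136). For each of these 3 genes tumours 1 and 3 lay below all 5 non-tumour lungs and tumour 6 lay among them. Without tumour 6 all 3 were called lower: Gja4 with -1.56 (adjusted p = 0.00599), Gja5 with -1.19 (adjusted p = 0.00837) and Gjc1 with -1.08 (adjusted p = 0.00111), so that 6 of 7 members were called, while the calls over all genes went from 2134 to 4066. In 1 fit over all 7 groups Gja5 (-0.71, adjusted p = 0.0187) and Gjc1 (-0.61, adjusted p = 0.0116) were called as well, with 5158 calls over all genes.

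Endothelial marker genes were also low in tumours 1 and 3. The list of 10 endothelial genes was at 7.07, 7.15 and 8.25 in tumours 1, 3 and 6, and at 8.27 to 8.68 in non-tumour lung, with none of its genes at 0 in any group. The arterial list was at 5.06, 5.28 and 6.27 in these tumours and at 6.03 to 6.52 in non-tumour lung, and the smooth muscle and pericyte list at 5.44, 5.12 and 6.29 against 6.26 to 6.79. In the test 3 of 10 endothelial genes fell (Ramp2 by 1.18, Egfl7 by 1.03 and Cldn5 by 1.25 on the log2 scale), as did 2 of 7 arterial genes (Bmx by 1.21 and Hey1 by 1.04) and 3 of 8 smooth muscle and pericyte genes (Cnn1 by 2.07, Tagln by 1.11 and Des by 1.33). Alveolar type 2 genes, markers of the surfactant-making epithelium, went the other way, at 12.04, 12.27 and 11.55 in tumours and 10.33 to 10.76 in non-tumour lung. The airway epithelial and alveolar type 1 lists did not rise. The 6 airway epithelial genes were at 7.32 to 7.55 in tumours and 8.84 to 9.33 in non-tumour lung, and all 6 fell. The 6 alveolar type 1 genes were at 7.94 to 8.63 and 8.68 to 9.16, where 1 fell and 5 did not pass. The part of these shifts in tissue makeup in the connexin values was not tested.

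**Figure D3:**
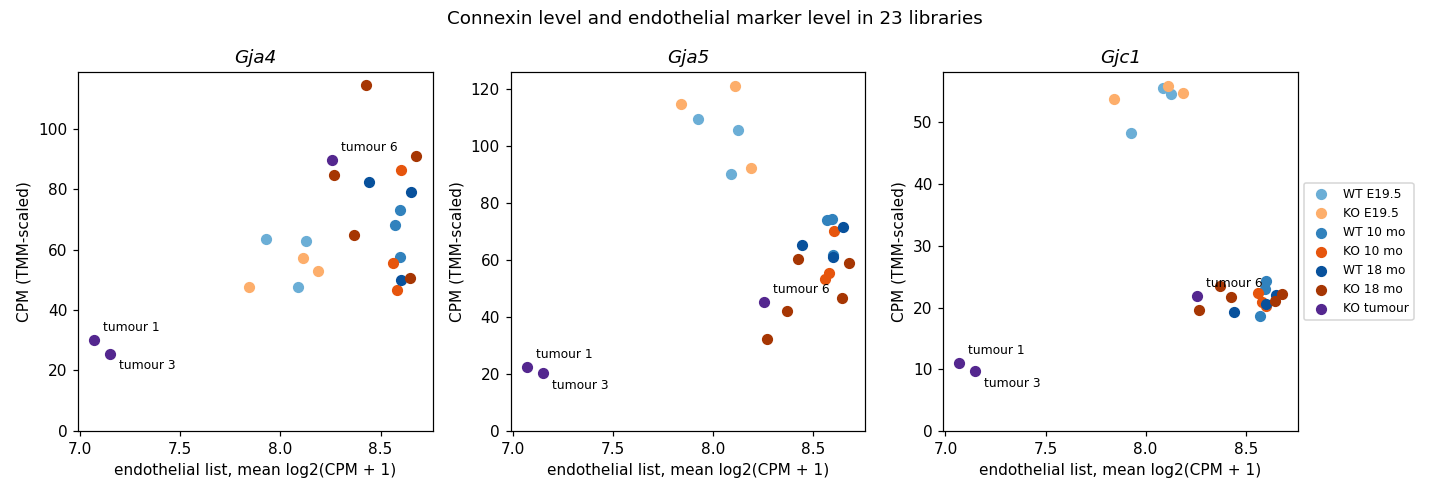
Level of Gja4, Gja5 and Gjc1 (CPM, y axis from 0) against the mean log2(CPM + 1) of 10 endothelial genes (x axis) in 23 libraries, coloured by group. Tumours 1 and 3 lie apart at the lower left, at 7.07 and 7.15 on the x axis, tumour 6 lies near the adult lungs at 8.25, and the embryos have high Gja5 and Gjc1 at 7.84 to 8.19.

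Gjb5 stood at 2.80, 0.986 and 0.707 CPM in tumours and at 0.397 to 1.76 CPM in non-tumour lung, and did not pass (0.70 ± 0.60, adjusted p = 0.479). Tumour 1 alone lay above the non-tumour range.

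Outside the members, 2 further beta connexins rose in tumours. Gjb1 (Cx32), the main connexin of liver, stood at 25.9, 35.4 and 14.02 CPM against 1.19 to 3.15 CPM (3.59 ± 0.36, adjusted p = 0.00122). A list of 5 hepatocyte genes was at 1.02 to 2.04 in tumours and at 0.34 to 0.43 in non-tumour lung, and the 3 of them tested rose. All 7 alveolar type 2 genes rose as well, with a median log2 fold change of 1.37. The part of either list in the level of Gjb1 was not tested. Gjb6, the neighbour of Gjb2, stood at 10.95, 37.0 and 12.1 CPM against 6.78 to 9.90 CPM (1.29 ± 0.37, adjusted p = 0.0491), a call that was lost without tumour 3 (adjusted p = 0.161), without any 1 of the 5 non-tumour lungs, and in both limma fits. With the animal as a block neither Gjb1 (adjusted p = 0.0543) nor Gjb6 (0.219) was called.

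The makeup of the members alone, without other connexins in the sum, differed in tumours. Gja1, Gja4, Gja5 and Gjc1 held 83.5%, 83.3% and 95.4% of the members' summed FPKM in tumours 1, 3 and 6, and between 96.9% and 98.9% in the 20 other libraries. Gja1 held 39.6% ± 8.76 (n = 3) in tumours beside 18.5% ± 4.71 (n = 5) in KO non-tumour lung, while Gja4 held 30.3% ± 12.8 beside 51.5% ± 6.88. The share of Gjb2 was 6.82% ± 3.33 in tumours beside 1.72% ± 0.148, and that of Gja3 was 4.65% ± 2.94 beside 0.0112% ± 0.0155. The summed level was 73.4, 75.4 and 137.1 FPKM in tumours and 83.2 to 136.7 FPKM in KO non-tumour lung. These shares were not tested, and each depends on the level of the other genes in the sum.

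**Figure D4:**
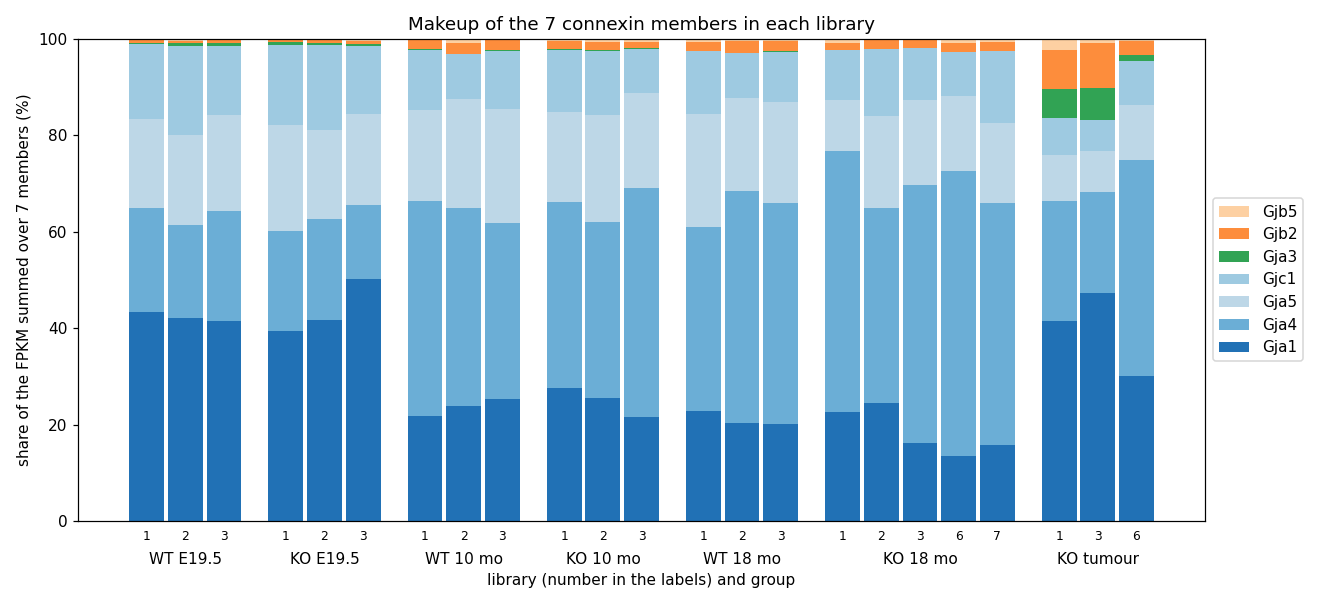
Share of each member in the FPKM summed over the 7 members (percent, y axis) in each library (x axis, by group and number); blue tones are Gja1, Gja4, Gja5 and Gjc1, green is Gja3 and orange tones are Gjb2 and Gjb5. The blue part is 83.3% to 95.4% in the 3 tumours and at least 96.9% in the other libraries.

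Against WT lung of 18 months, the same tumour libraries were used again, and the comparisons are therefore not independent. Again 3 of 7 members were called higher, and 15.4% of 15346 genes were called in either direction. Given how the members were chosen, their share is here too a description only. Gja1 stood at 96.8 to 119 CPM against 58.6 to 68.5 CPM (0.74 ± 0.12, adjusted p = 0.0164), Gjb2 at 9.03 to 16.6 against 3.67 to 6.27 CPM (1.39 ± 0.30, adjusted p = 0.0282), and Gja3 at 4.24 to 13.4 against 0.109 to 0.319 CPM (5.49 ± 0.61, adjusted p = 0.00765). Gja5 was below every WT lung in all 3 tumours, 20.2 to 45.4 against 61.1 to 71.6 CPM, and missed the threshold (-1.18 ± 0.32, adjusted p = 0.0525, and 0.000751 to 0.168 over the alternatives). It was called with DESeq2 (adjusted p = 0.00267), with the other size factors (0.0486), with limma at a pseudocount of 0.1 FPKM (0.0495) and in 1 fit over all groups (0.00116). Gja4 (25.4 to 89.6 against 50.1 to 82.5 CPM), Gjc1 (9.66 to 21.9 against 19.4 to 22.0 CPM) and Gjb5 (0.707 to 2.80 against 0.735 to 0.911 CPM) overlapped and did not pass. The number of members called moved with single libraries: it was 1 without WT lung 1, 0 without WT lung 2 or 3, 2 without tumour 1 or 3, and 6 without tumour 6. The calls over all genes moved with them: 504, 11 and 3 without WT lung 1, 2 or 3, 2003 and 1680 without tumour 1 or 3, and 5722 without tumour 6. Gjb1 rose here too (3.03 ± 0.36, adjusted p = 0.00946).

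**Figure D5:**
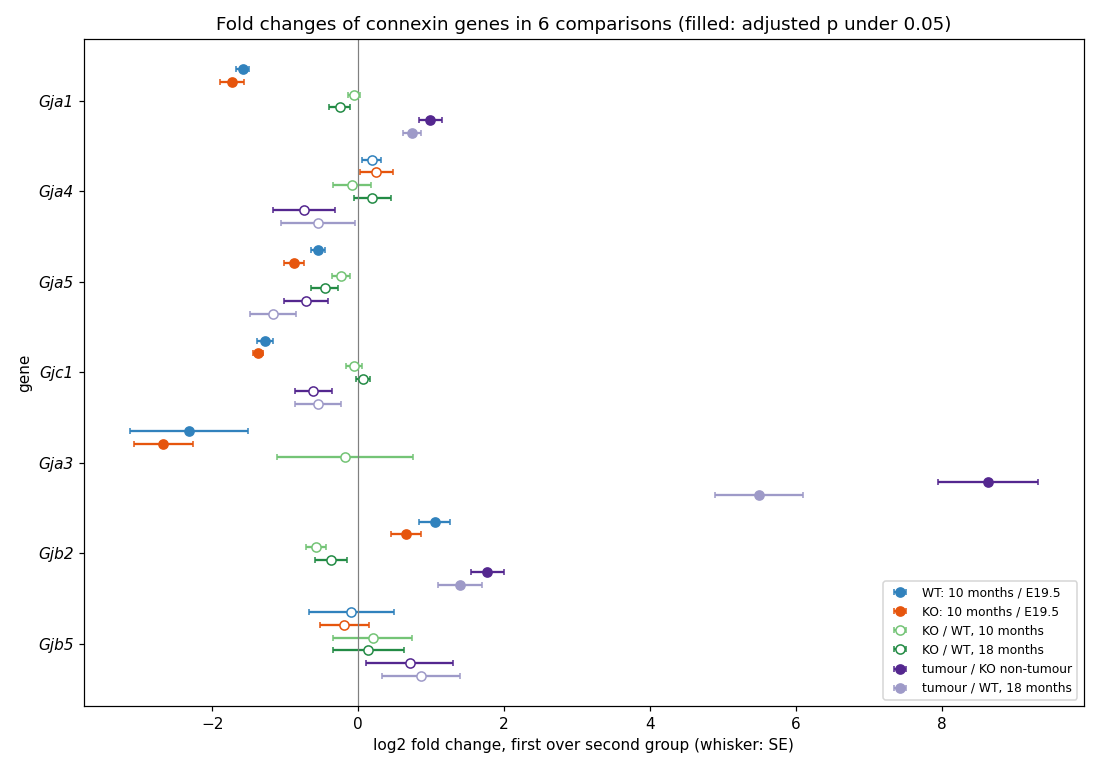
Log2 fold change of each member (x axis, whiskers SE) by gene (y axis) in 6 comparisons; filled points have an adjusted p under 0.05, and Gja3 was not tested between KO and WT lung at 18 months. The tumour points of Gja1, Gja3 and Gjb2 are to the right of 0 and filled, the maturation points of Gja1, Gja5, Gjc1 and Gja3 are to the left and filled, and no point of KO against WT lung is filled.

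Of 17 genes for proteins that bind, phosphorylate or remove connexins, 2 were called in tumours, a share near the 13.8% of all genes. Sgsm3, which binds Gja1 protein, rose by 0.98 ± 0.23 (adjusted p = 0.0260), Cav1, the caveolar coat protein, fell by 1.07 (SE 0.29, adjusted p = 0.0410), and the other 15 did not pass. Sgsm3 lost its call without KO non-tumour lung 1, 2, 3 or 6 (adjusted p 0.0513 to 0.0634), and Cav1 without any library other than tumour 6 (adjusted p 0.0567 to 0.169). Between E19.5 and 10 months 6 rose and 5 fell in WT lung, and 3 rose and 7 fell in KO lung, shares near the 62.8% and 60.5% of all genes called there. Those with the smallest adjusted p in WT lung were Dbn1, an actin-binding protein (-2.59 ± 0.10, adjusted p = 1.13e-07), Nedd4, a ubiquitin ligase that removes Gja1 protein (-1.40 ± 0.07, adjusted p = 3.60e-07), Prkce, a protein kinase C (0.98 ± 0.08, adjusted p = 8.26e-06), and Csnk1d, a casein kinase (-0.51 ± 0.06, adjusted p = 7.21e-05). Between the genotypes 0 of the 17 were called at E19.5, 10 months or 18 months. The pannexins Panx1 and Panx2, which form channels without being connexins, were called in none of the comparisons.

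The genes most like each member were sought by Pearson's r of log2(CPM + 1) over the 23 libraries among 14414 genes. All values share libraries and the embryo, adult and tumour groups, and are given as a description. Gja4 came closest to the endothelial transcription factors Sox18 (r = 0.917) and Sox7 (r = 0.874), and then to Zfand3 (r = 0.823). Gja1 was nearest to Desi2 (r = 0.965) and the tight junction gene Cldn4 (r = 0.958), and Gjc1 to Nt5dc2 (r = 0.987), Mfap2, a microfibril protein (r = 0.984), and Adgra3 (r = 0.984). For Gja5 the nearest was Jph2, a junction protein of heart muscle (r = 0.938), followed by Fkbp9 (r = 0.936) and Tnfrsf19 (r = 0.931). Gja3 was nearest to Slc35f1 (r = 0.968), Stk39 (r = 0.964) and Golm1 (r = 0.956), and Gjb2 to Adgrg1 (r = 0.943), H13 (r = 0.933) and Inhbb (r = 0.932). Gjb5 reached only r = 0.734, with Snx8, followed by Timp1 (r = 0.722) and Txndc5 (r = 0.715). Among the members themselves the highest r was 0.863, between Gja5 and Gjc1, and the lowest was -0.828, between Gjb2 and Gjc1.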

How the data were processed

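Total RNA of mouse lung was measured in 23 libraries. The authors deposited expected counts per gene, and FPKM, both in tables of 24411 genes. Trimmomatic 0.36, STAR 2.5.2b, RSEM 1.3.0 and build mm10 are named in the submitters' processing notes, without settings. Counts were rounded and tested with edgeR 4.0.16 (R 4.3.3): TMM scaling, the filterByExpr low-count filter, a robust quasi-likelihood F test on the groups compared, with p-values adjusted by the Benjamini-Hochberg method across every gene tested. Genes with an adjusted p under 0.05 were called. Every adjusted p is edgeR's unless another tool is named. Fold changes are log2 with a prior count of 0.125. Alternatives were the other size factors, no filter, DESeq2 1.42.0, limma 3.58.1 on log2(FPKM + 0.1) or log2(FPKM + 1), 1 fit over all 7 groups, leaving out each library, and a replicate block. Within groups 28 pairs of libraries differed by more than counting error (chi-square per degree of freedom 6.72 to 228). Tests were checked on simulated data.

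Tumours and non-tumour lungs 1, 3 and 6 share codes in the labels, taken here as animals although no label says so. Their deviations correlated at 0.359, 0.108 and 0.103. Only for code 1 was the non-tumour lung with the same code the best match of the tumour. KO and WT embryos with the number 3, which differ in genotype, reached 0.120. The correlations therefore do not show the pairing, which rests on the codes alone. The members and gene lists were chosen with earlier results of these data known. Named were all 7 members, Rarres1, up to 4 called genes of each list described, and the 3 genes most like each member, except that some genes are not reported here.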

Additional observations from a re-analysis of the deposited data

How the results depend on the processing

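Of 74 fold changes of members, 16 were called and 58 were not, and none of the 16 changed sign in any alternative tried. Of the 58, 26 changed sign in some alternative; all but 2 of these were within 1 SE of 0, and such members are given as levels only. The 2 were Gjb5 in tumours against KO non-tumour lung (-0.064 without tumour 1, and up to 1.07 over the libraries left out) and Gja4 in KO lung at 10 months against E19.5 (-0.047 without KO 10-month library 3, and up to 0.43). The count of members called, 0 or 5 in the other comparisons, was within 1.5 times there. In tumours against KO non-tumour lung it was 3, with 5 in 1 fit over all groups, 1 with the replicate block, and 3 to 6 when 1 library was left out. In tumours against WT lung it was 3, with 5 in 1 fit over all groups, 5 with the replicate block, 0 to 6 when 1 library was left out, and 6 in the 4 libraries with numbers 1 and 3 without the block, an alternative chosen after seeing the data. In the other comparisons a shared number was not read as a shared animal. There the block left 0 members called between KO and WT lung, 4 in WT maturation (Gja3 lost) and 5 in KO maturation.

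Calls over all genes ranged over the alternatives from 41 to 586 around 233 (KO against WT, 10 months), 3 to 157 around 12 (18 months), 135 to 5158 around 2134 (tumour against KO non-tumour lung), 3 to 5722 around 2358 (tumour against WT, with 504, 11 and 3 without WT lung 1, 2 or 3) and 6 to 107 around 25 (interaction with E19.5). With the replicate block the tumour calls were 135, and 378 in the same 6 libraries without it. With limma on log2(FPKM + 0.1), 816 genes were higher and 1394 lower in tumours than in KO non-tumour lung, beside 1113 and 1021 with edgeR. Counts limit Gja3 and Gjb5 most: Gja3 had 3 to 32 reads in each adult non-tumour group.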
